A study of Mus musculus with 2 samples.

Results

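Immunoglobulin variable (V) segments are the short germline gene pieces that supply most of the antigen-binding end of an antibody. All genes whose symbol starts with Ighv, Igkv or Iglv followed by a digit were taken, which gave 348 of the 32285 genes counted: 185 heavy (Ighv), 160 kappa (Igkv) and 3 lambda (Iglv) segments. All 348 matched an entry of the GENCODE M21 annotation (mouse build GRCm38) by gene ID, where 218 are annotated as V genes and 130 as pseudogenes. The heavy segments lie on chromosome 12, the kappa segments on chromosome 6 and the lambda segments on chromosome 16. The symbols Ighv1-13 and Ighv5-8 are each used for more than 1 gene ID, and these rows were kept apart.

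The cells came from orthotopic KPC pancreatic tumours, mouse pancreatic cancer cells implanted in the pancreas, and were taken 21 days after implantation. The control library pooled tumours of 5 littermates carrying the floxed Porcn alleles without Cre (Porcnfl/fl, labelled WT), and the knockout library pooled tumours of 5 Csf1r-Cre;Porcnfl/fl mice (KO). Both groups thus carry the floxed alleles; the Csf1r promoter drives Cre in macrophages and other cells that use it, and the strain and the tumour cells' genotype are not given in the sources used here. Porcn is the enzyme that attaches the lipid Wnt proteins need for secretion. Each group is 1 library of pooled mice, so no difference between the groups has a replicate check, no p-value is given, and all intervals (95%) cover counting error only. Mice cannot be told apart within a library.

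After quality filtering, 11516 control and 10467 knockout cells remained. Plasma cells, called at 10 or more UMIs (unique molecules) of Jchain, which joins antibody polymers, and 3 or more of Mzb1, a chaperone for antibody assembly, numbered 58 in the control (0.504% of cells, exact binomial interval 0.383% to 0.651%) and 183 in the knockout library (1.75%, 1.51% to 2.02%). B cells, called at 2 or more UMIs of the receptor subunit Cd79a with further B cell marker UMIs and none of Cd3e, numbered 5 and 369. All 8 plasma markers were detected in the plasma cells of each library, with summed levels of 22147 and 23866 CPM, UMIs scaled to a common depth. Median depth per plasma cell was 16240.5 UMIs in the control and 15720 in the knockout library, against 2369 and 3152 for B cells. Epithelial markers (Epcam, Krt8, Krt18, Krt19; 4 of 4 detected in each library) summed to 2522 CPM in control and 389 CPM in knockout plasma cells, and fibroblast markers (3 of 3) to 531 and 18.5 CPM. B cell markers (7 of 8 detected in control and 8 of 8 in knockout plasma cells) summed to 460 and 847 CPM, and among them Ms4a1 was found in 5 of 58 and 61 of 183 cells (7.59 and 62.9 CPM). The part of these marker lists in the results was not tested, but the main values without the 15 control and 11 knockout plasma cells holding 20 or more epithelial UMIs are in the closing section. Porcn itself had 22 UMIs in 401 control cells with a Csf1r UMI (4.82 CPM, 3.02 to 7.29) and 23 UMIs in 503 such knockout cells (5.14 CPM, 3.26 to 7.72). The deleted exons are not given in the sources used here, so these 3′ counts do not check the deletion. Plasma cells held no Csf1r UMI in either library. The libraries shared 46 cell barcodes (0.334% of the control's), none of them a plasma cell in both.

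During B cell development, RAG1 and RAG2 cut and join 1 V segment to D and J segments at the heavy locus and 1 V to a J segment at a kappa or lambda locus. Each B cell thus normally transcribes 1 rearranged heavy and 1 rearranged light chain, and its daughters inherit them. Class switching later changes the constant gene (isotype) behind the same heavy V segment, and hypermutation alters V letters. Plasma cells transcribe the rearranged genes at very high levels, which is why V segments can be read in them from 3′ libraries made without receptor enrichment. The joining sequence between V and J was not read here, so cells with the same V segments are not thereby shown to be 1 clone.

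The segments on which the heavy-chain results turn are shown first, since they are so alike. The 3 pairs below are those found most often as first and second segment of the same cell. Each line is the last 300 bases of the V exon, 5′ to 3′ in the coding direction (from GENCODE M21 transcripts, minus strand of chromosome 12, GRCm38), and the capitals mark the bases at which the members of a pair differ. Ighv5-4 lies at chr12:113597446-113597745 and Ighv5-6 at chr12:113625506-113625805. Ighv1-53 lies at chr12:115158403-115158702 and Ighv1-55 at chr12:115208095-115208394. Ighv1-66 lies at chr12:115593110-115593409 and Ighv1-82 at chr12:115952538-115952837.
Ighv5-4: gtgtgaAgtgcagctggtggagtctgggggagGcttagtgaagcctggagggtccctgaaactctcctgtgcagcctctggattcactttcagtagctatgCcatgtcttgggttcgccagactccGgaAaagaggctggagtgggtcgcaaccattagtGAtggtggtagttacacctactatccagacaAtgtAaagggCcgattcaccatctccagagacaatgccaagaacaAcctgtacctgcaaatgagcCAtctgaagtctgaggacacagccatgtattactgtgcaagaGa
Ighv5-6: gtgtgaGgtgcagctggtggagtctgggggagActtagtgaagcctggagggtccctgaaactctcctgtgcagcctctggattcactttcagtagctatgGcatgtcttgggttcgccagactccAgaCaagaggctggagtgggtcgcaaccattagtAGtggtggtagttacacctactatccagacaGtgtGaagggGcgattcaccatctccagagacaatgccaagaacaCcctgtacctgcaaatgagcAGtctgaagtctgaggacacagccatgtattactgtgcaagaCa
Ighv1-53: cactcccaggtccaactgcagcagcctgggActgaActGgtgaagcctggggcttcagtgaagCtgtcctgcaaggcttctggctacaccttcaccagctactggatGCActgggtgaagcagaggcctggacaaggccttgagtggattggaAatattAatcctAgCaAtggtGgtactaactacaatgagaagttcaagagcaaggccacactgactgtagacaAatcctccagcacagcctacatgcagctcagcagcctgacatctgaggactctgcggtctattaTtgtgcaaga
Ighv1-55: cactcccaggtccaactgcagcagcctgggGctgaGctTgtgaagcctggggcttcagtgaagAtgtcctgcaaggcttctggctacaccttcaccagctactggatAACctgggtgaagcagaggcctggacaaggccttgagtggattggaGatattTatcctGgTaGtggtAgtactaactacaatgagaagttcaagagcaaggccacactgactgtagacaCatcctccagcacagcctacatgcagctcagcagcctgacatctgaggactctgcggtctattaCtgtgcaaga
Ighv1-66: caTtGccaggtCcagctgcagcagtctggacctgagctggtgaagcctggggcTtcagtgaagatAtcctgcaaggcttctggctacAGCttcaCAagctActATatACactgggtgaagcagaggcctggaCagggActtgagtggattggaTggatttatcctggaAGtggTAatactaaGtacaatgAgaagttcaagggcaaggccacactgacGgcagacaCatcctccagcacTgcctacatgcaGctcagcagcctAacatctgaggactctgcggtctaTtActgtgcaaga
Ighv1-82: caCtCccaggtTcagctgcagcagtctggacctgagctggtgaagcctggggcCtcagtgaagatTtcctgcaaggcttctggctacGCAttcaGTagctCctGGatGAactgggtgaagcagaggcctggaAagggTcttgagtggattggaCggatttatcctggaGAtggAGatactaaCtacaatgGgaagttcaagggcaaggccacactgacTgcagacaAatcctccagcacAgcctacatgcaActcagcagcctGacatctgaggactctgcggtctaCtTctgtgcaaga
Over the whole exon, Ighv5-4 and Ighv5-6 differ at 14 bases (95.4% identity) and share a longest identical run of 68 bases. Ighv1-53 and Ighv1-55 differ at 15 bases (95.1%) with a longest run of 63 bases. Ighv1-66 and Ighv1-82 differ at 31 bases (89.8%) with a longest run of 41 bases.

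The light-chain and paired results turn on a further 6 segments. The kappa pair Igkv11-125 (chr6:67913755-67914052) and Igkv14-111 (chr6:68256572-68256869), both on the plus strand, was found together in 4 cells. The capitals mark the 56 bases at which these exons of 298 bases differ (81.2% identity).
Igkv11-125: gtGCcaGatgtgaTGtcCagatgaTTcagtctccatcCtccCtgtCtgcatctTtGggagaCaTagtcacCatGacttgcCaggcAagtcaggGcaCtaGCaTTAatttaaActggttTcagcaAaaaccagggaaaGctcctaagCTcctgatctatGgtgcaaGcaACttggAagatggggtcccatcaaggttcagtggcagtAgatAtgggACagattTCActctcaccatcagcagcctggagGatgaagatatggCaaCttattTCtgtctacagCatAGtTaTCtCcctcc
Igkv14-111: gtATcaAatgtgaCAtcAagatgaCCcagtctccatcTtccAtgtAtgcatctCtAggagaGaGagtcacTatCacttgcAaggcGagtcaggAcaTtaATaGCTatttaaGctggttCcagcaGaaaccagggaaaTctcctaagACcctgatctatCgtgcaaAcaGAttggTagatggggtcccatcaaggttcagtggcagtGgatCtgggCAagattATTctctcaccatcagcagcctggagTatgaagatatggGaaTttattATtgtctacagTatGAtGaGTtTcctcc
In the last set the capitals mark the last in-frame cysteine codon, the conserved cysteine at which the third hypervariable loop begins. Iglv1 (chr16:19085017-19085316, minus strand) is shown because it was counted in most kappa-expressing plasma cells. Ighv1-69 (chr12:115623161-115623460, minus strand) led most of the lambda-expressing cells, and Ighv11-2 (chr12:114048241-114048540, minus strand) with Igkv14-126 (chr6:67896345-67896642, plus strand) is a pair well known from B-1 cells that bind phosphatidylcholine.
Iglv1: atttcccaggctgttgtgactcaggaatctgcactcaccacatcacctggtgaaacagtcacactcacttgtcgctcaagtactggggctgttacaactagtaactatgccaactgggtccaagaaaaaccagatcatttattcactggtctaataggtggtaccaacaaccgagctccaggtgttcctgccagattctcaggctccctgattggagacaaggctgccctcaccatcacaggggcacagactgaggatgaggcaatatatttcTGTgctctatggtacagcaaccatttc
Ighv1-69: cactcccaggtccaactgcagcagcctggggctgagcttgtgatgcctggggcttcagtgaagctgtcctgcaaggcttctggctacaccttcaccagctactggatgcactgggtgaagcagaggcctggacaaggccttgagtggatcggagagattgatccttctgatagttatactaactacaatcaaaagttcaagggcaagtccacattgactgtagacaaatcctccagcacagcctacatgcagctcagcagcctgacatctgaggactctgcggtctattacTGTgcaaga
Ighv11-2: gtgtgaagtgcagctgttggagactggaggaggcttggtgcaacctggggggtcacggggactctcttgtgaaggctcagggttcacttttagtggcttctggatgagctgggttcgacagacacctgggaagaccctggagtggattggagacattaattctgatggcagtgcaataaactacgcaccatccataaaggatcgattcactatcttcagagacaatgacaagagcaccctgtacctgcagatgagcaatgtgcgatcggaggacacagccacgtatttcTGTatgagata
Igkv14-126: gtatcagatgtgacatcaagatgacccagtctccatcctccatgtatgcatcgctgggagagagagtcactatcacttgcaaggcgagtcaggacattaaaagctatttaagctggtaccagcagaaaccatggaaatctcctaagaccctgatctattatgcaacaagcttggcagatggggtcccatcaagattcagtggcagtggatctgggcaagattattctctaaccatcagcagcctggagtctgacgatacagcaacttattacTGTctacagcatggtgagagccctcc

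V segments were almost wholly a plasma cell readout. Kept cells held 10172 V UMIs in the control and 34852 in the knockout library, of which 97.8% and 96.9% lay in plasma cells, where they made up 0.944% and 1.10% of all UMIs. A control plasma cell held a median of 23.5 heavy, 65 kappa and 31.5 lambda V UMIs, and a knockout plasma cell 28, 60 and 21. Every chain ranged down to 0 UMIs in some plasma cell, and up to 235 heavy, 277 kappa and 346 lambda UMIs in the control and 197, 348 and 787 in the knockout library. Heavy V UMIs numbered 3.20 and 3.56 per 100 UMIs of the heavy constant genes, and kappa V UMIs 2.01 and 2.20 per 100 UMIs of Igkc, the kappa constant gene. The lambda ratio was far higher, at 21.2 and 38.2 V UMIs per 100 UMIs of Iglc1 to Iglc3. In T cells, which do not rearrange these loci, 0 of 149 control cells had a V UMI of any chain, which allows a share of up to 2.01% (3 counts of 149; exact binomial upper limit 2.45%). Among 1493 knockout T cells (median 3791 UMIs) 0.871% had a heavy, 1.34% a kappa and 1.41% a lambda V UMI, which is taken as the background of free RNA.

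Of the 348 segments, 183 had a UMI in some plasma cell, 102 in the control and 173 in the knockout library, and 165 had none. A segment was taken to lead a cell when it had at least 3 UMIs and at least 50% of the cell's UMIs of its chain. By this rule 107 segments led at least 1 plasma cell. In the control a heavy segment was called in 50 of 58 cells (86.2%, 74.6% to 93.9%), and in the knockout library in 145 of 183 (79.2%, 72.6% to 84.9%). A kappa segment was called in 54 control (93.1%) and 176 knockout cells (96.2%). The share of the top segment was taken over cells with 3 or more V UMIs of the chain, called or not. Its median was 97.6% for heavy and 97.6% for kappa in the control, and 88.2% and 98.4% in the knockout library.

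Among heavy segments, Ighv1-82 led the most plasma cells in each library. There were 6 such cells among 50 called in the control (12%, 4.53% to 24.3%), with 372 UMIs in all, and 14 among 145 in the knockout library (9.66%, 5.38% to 15.7%), with 570 UMIs. Behind it in the knockout library came Ighv1-55 with 10 cells, Ighv1-81 with 9, Ighv1-53 with 8 and Ighv1-64 with 6. In the control, Ighv3-8, Ighv6-6, Ighv1-53 and Ighv1-69 each led 3 cells. Ighv1-55 led 1 control cell, and Ighv1-81 and Ighv1-64 led none, with 9 and 4 UMIs there against 567 and 362 in the knockout library. Ighv3-8 went the other way, with 111 control UMIs, 83 of them in 1 cell, and 0 knockout UMIs. Set against a floor of 3 counts in the knockout library, its UMIs were 108-fold higher per plasma UMI in the control. That value covers UMI counts alone. The UMIs came from the 3 cells it led, so it sets no minimum for use by cells. Ighv6-6 had 87 control UMIs in 3 cells and 34 knockout UMIs in 2.

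**Figure D1:**
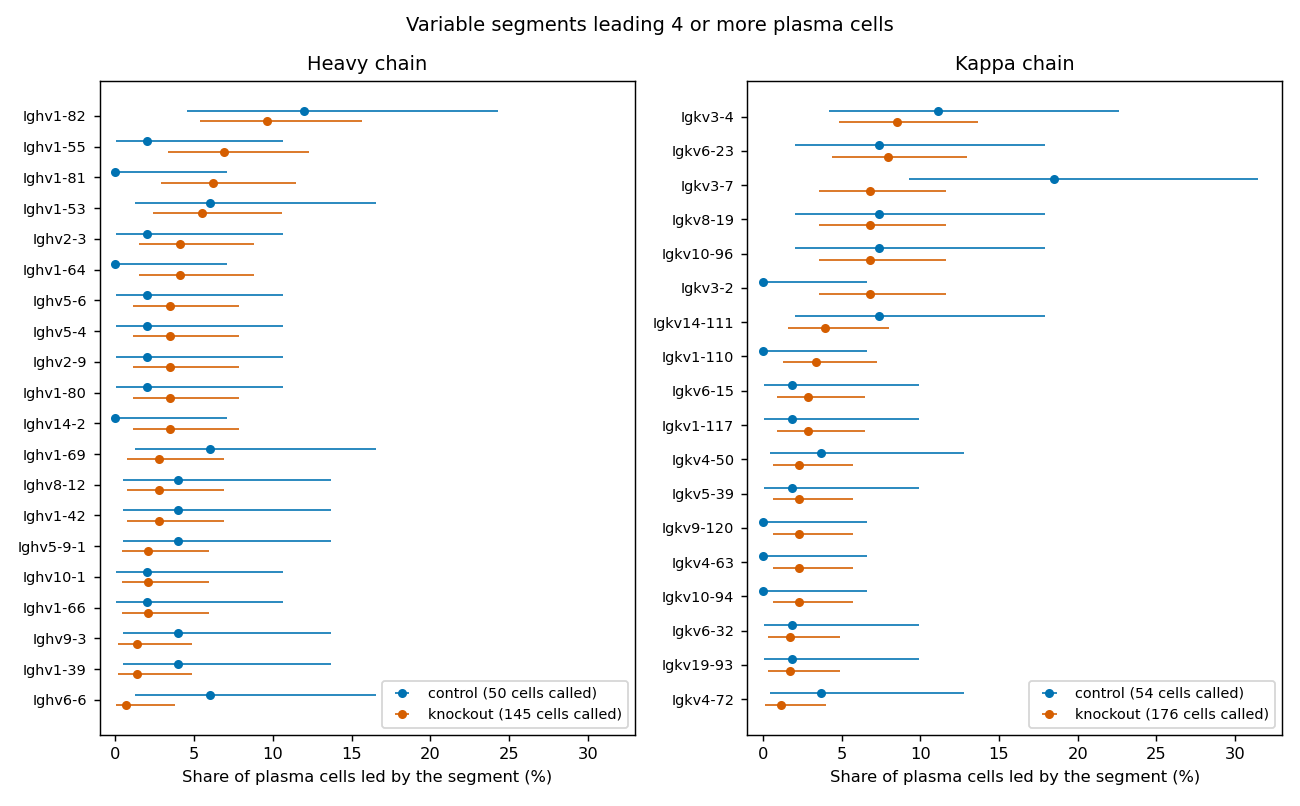
Share of plasma cells (%) led by each segment that led 4 or more cells over both libraries, for heavy segments on the left and kappa segments on the right. Points are the control (blue; 50 heavy and 54 kappa calls) and knockout (orange; 145 and 176) libraries, and lines the exact 95% binomial intervals, which overlap between libraries for every segment drawn.

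Among kappa segments, Igkv3-7 led 10 of 54 called cells in the control (18.5%, 9.25% to 31.4%) and 12 of 176 in the knockout library (6.82%, 3.57% to 11.6%). Igkv3-4 led 6 control and 15 knockout cells (8.52%), the most in the knockout library. Igkv6-23 led 4 and 14 cells, Igkv8-19 and Igkv10-96 each 4 and 12, and Igkv14-111 4 and 7. Igkv3-2 led 12 knockout cells and no control cell, with 1151 against 26 UMIs, and Igkv1-110 led 6 knockout cells with 376 UMIs against 0. With the control at the same floor of 3 counts, Igkv1-110 UMIs were 42.8-fold higher in the knockout library. This too covers UMI counts alone and sets no minimum for use by cells. By UMIs the order was different: Igkv8-19, which led 4 and 12 cells, held 20.3% of control and 15% of knockout kappa V UMIs. Its median was 267 and 201 UMIs in the cells it led. Igkv3-7, in turn, held 22.4% and 9.75% of kappa V UMIs. None of the 51 heavy or 54 kappa segments that led a cell in either library had binomial intervals that stood apart between the libraries, as the plot of shares by segment shows.

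Use was spread over many segments in each library. Heavy calls fell on 30 segments in the control and 47 in the knockout library, and 26 segments led a cell in both (86.7% of the control's and 55.3% of the knockout's). Kappa calls fell on 24 and 50 segments, 20 of them shared (83.3% and 40.0%). The 5 leading heavy segments took 36.0% of control and 32.4% of knockout calls, and the 5 leading kappa segments 51.9% and 36.9%. The effective number of segments, the number of equally used segments that would give the same chance of drawing a segment again in another cell, was 36.0 (control) and 32.0 (knockout) for heavy and 16.3 and 26.8 for kappa. The estimate corrects for the number of cells and can therefore exceed the number seen. Counted over UMIs the effective numbers were lower, 19.3 and 27.6 for heavy and 8.54 and 15.7 for kappa.

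Single cells carried much of the count of many segments. This was taken over 59 control and 105 knockout segments, a part of the 102 and 173 with a plasma cell UMI. For the median segment among them, 1 cell supplied 70.4% of its UMIs in the control and 53.4% in the knockout library. A fold change of a V segment between these libraries is therefore largely a count of a few cells. Across all genes with 20 or more UMIs in plasma cells, 20.6% lay past a 2-fold difference between the libraries (pseudocount of 1 UMI per library; 6.58% higher and 14.0% lower in the knockout). Of the 114 segments tested, 88 (77.2%) did, 58 with more and 30 with less in the knockout. The median absolute difference was 2.69 on the log2 scale for segments and 0.42 for all genes, and the median signed difference 1.12 and -0.05. Of the tested segments, 34 had 0 control UMIs and 4 had 0 knockout UMIs. With these 38 at their bound of 3 counts, the segments' median was 1.20 and 89 lay past 2-fold. All 38 were bound to lie past it, since they had 20 or more UMIs in 1 library and none in the other. The 77.2% and the median absolute difference of 2.69 are therefore partly set by the filter. The 20 UMIs were summed over both libraries, and the knockout library had 183 plasma cells against 58 in the control. A segment of few knockout cells could therefore pass through that library alone. The split of 58 and 30 and the signed medians thus cannot be read as a direction of change.

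By family, the Ighv1 family led 23 of 50 called cells in the control (46.0%, 31.8% to 60.7%) and 82 of 145 in the knockout library (56.6%, 48.1% to 64.8%). This large family holds 47.0% of the annotated heavy V genes, so its share of cells was near its share of the locus in the control and somewhat above it in the knockout library. Ighv5 led 5 control and 19 knockout cells and Ighv2 4 and 16. The Ighv3 and Ighv6 families led 4 and 3 control cells and 2 knockout cells each. Within isotypes, Ighv1 led 8 of 17 control and 42 of 67 knockout cells of Ighg2c, 6 of 12 and 17 of 26 of Ighg2b, and 4 of 8 and 8 of 17 of Ighm. Among Ighg1 cells it led 1 of 4 and 3 of 11.

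Kappa families departed more from the make-up of their locus. Igkv3 holds 9% of annotated kappa V genes but led 17 of 54 called cells in the control (31.5%, 19.5% to 45.6%) and 42 of 176 in the knockout library (23.9%, 17.8% to 30.9%). Igkv4 holds 26% of those genes and led 14.8% and 10.2% of cells. Igkv6 led 13.0% and 15.3%, and Igkv10, with 3% of the genes, 7.41% and 9.09%. Igkv1 led 1 control cell and 14 knockout cells, and Igkv9 none and 6. Most Igkv3 cells were led by Igkv3-7, Igkv3-4 or, in the knockout library, Igkv3-2.

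These Igkv3 genes are among the V genes nearest to the kappa J segments, which lie on the plus strand. The distance is 23.5 kb for Igkv3-2, 50.2 kb for Igkv3-4 and 115 kb for Igkv3-7. Kappa segments farther away than the median V gene (1314 kb) led 18 called control cells (33.3%, 21.1% to 47.5%) and 73 in the knockout library (41.7%, 34.3% to 49.4%), and by construction make up 50 of the 100 V genes. Segments on the same strand as J, which join by deletion of the stretch between, led 51.9% and 49.7% of cells and make up 38.0% of the V genes. The others must be inverted to join. At the heavy locus, where nearly all V genes share the strand of J, calls did not lean towards J in either library. Segments beyond the median distance (1182 kb) led 25 of 50 called cells in the control (35.5% to 64.5%) and 84 of 141 placed on a V gene in the knockout library (59.6%, 51.0% to 67.7%), against 49.6% of V genes. Ighv1-82 and Ighv1-81 lie near the far end of that locus, at 2523 and 2490 kb.

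**Figure D2:**
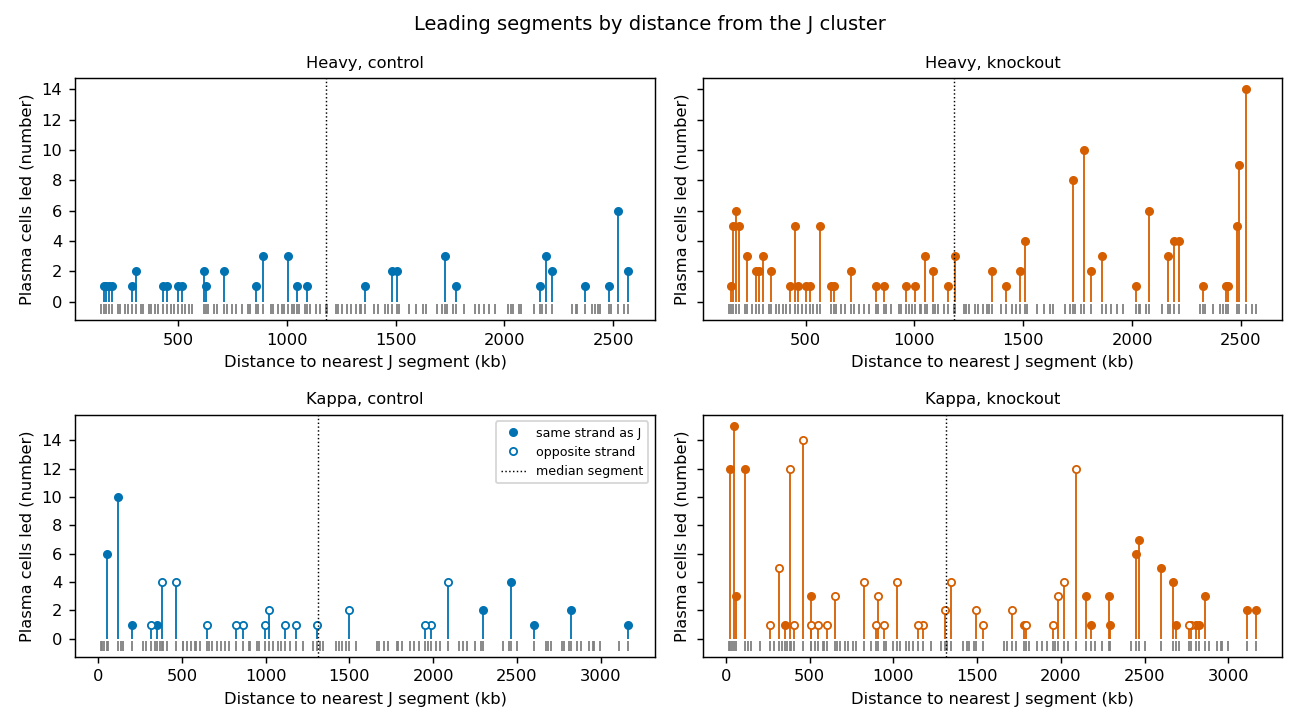
Number of plasma cells led (vertical axis) by each annotated V gene against its distance in kb from the nearest J segment, for heavy (top) and kappa (bottom) chains in the control (left, blue) and knockout (right, orange) libraries. Grey ticks are all annotated V genes, the dotted line their median distance (1182 kb heavy, 1314 kb kappa), and open circles V genes on the strand opposite to J. Kappa calls pile up next to J, where Igkv3-4 and Igkv3-7 stand, whereas the most used heavy segment, Ighv1-82, stands at the far end.

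Within single cells, a second heavy segment was common, and in most such cells it was a close relative of the first. Of 229 plasma cells with 3 or more heavy V UMIs, 75 (32.8%, 26.7% to 39.2%) had a second with 3 or more UMIs and 20% or more of the heavy V UMIs, 16 of 57 in the control and 59 of 172 in the knockout library. The first and second V exons were 95.1% identical at the median, and 90% identical or more in 58 of the 75 cells. Over all 17020 pairs of heavy segments the median identity was 59.9%, and 2.24% of pairs reached 90%. In 72 of the 75 cells both segments came from the same family. Ighv5-4 with Ighv5-6 made up 10 of these cells, Ighv1-53 with Ighv1-55 7, and Ighv1-66 with Ighv1-82 7. In the last pair, first and second counts were 94 and 30 UMIs in the control cell and, for example, 72 and 28 or 53 and 16 UMIs in knockout cells. The runs of lower-case letters in the sequences above are the stretches in which such a pair cannot be told apart. Of the 115 annotated heavy V genes, 89 had a relative of 90% identity or more. The source of the second segments was not tested. Merging relatives lowered the number of distinct segments sharply (closing section).

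Second kappa segments were rarer and unlike the first. They were found in 17 of 231 cells with 3 or more kappa V UMIs (7.36%, 4.35% to 11.5%), with a median identity of 65.7% to the first, and 1 of 17 was of the same family. This was so although 73 of 100 kappa V genes also had a relative of 90% identity or more. The 1 repeated combination was Igkv11-125 with Igkv14-111, in 4 knockout cells. They held 32 and 34, 98 and 100, 46 and 41, and 84 and 152 UMIs of Igkv11-125 and Igkv14-111, so neither segment was a trace beside the other. These cells held all 260 plasma cell UMIs of Igkv11-125. They were also the 4 knockout cells whose first heavy segment was Ighv1-66, with 10, 51, 16 and 44 UMIs of it, and 2 of them were of isotype Ighg2c and 2 of Igha. The fifth plasma cell with Ighv1-66 first was in the control library and had no Igkv11-125.

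**Figure D3:**
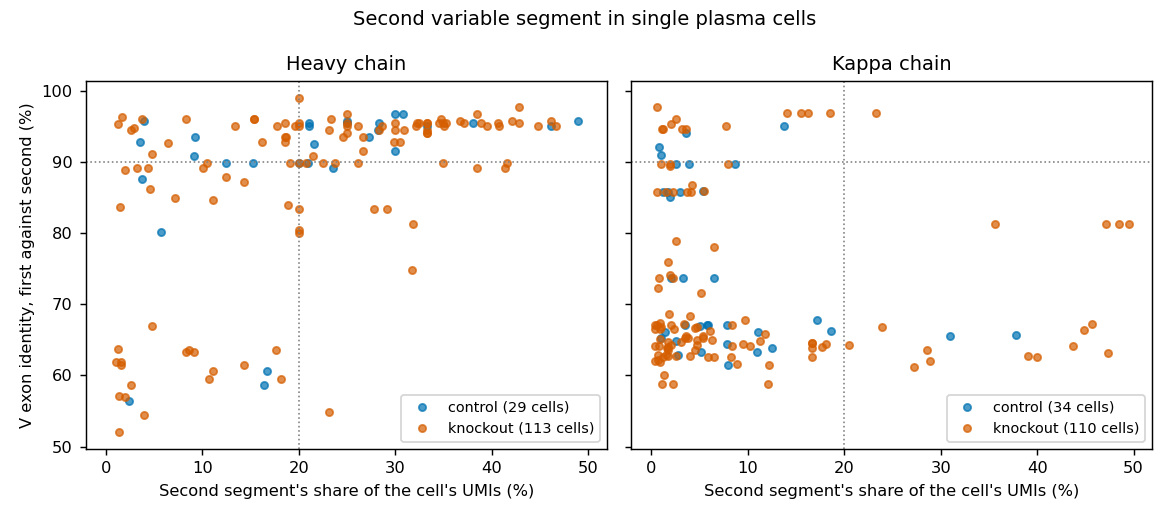
For each plasma cell with a first segment of 3 or more UMIs and any second segment, the second segment's share of the cell's V UMIs of that chain (%, horizontal) against the V exon identity of first and second (%, vertical), heavy on the left and kappa on the right, control blue and knockout orange. Dotted lines mark a share of 20% and an identity of 90%. Heavy second segments of high share crowd above 90% identity, whereas those of kappa lie mostly near 65.7%, with the 4 cells of Igkv11-125 and Igkv14-111 at 81.2%.

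A heavy and a kappa segment were both called in 46 control and 140 knockout plasma cells. They formed 37 distinct heavy-kappa pairs in the control and 87 in the knockout library. In the control, pairs found in 2 or more cells held 17 cells (37.0%, 23.2% to 52.5%), and in the knockout library such pairs held 76 (54.3%, 45.7% to 62.7%). These shares rise with the number of cells drawn, which differed between the libraries. By these segment labels pairs were many and none dominated: the largest group held 3 of 46 paired cells in the control (6.52%, 1.37% to 17.9%) and 7 of 140 in the knockout library (5%, 2.03% to 10.0%). Close relatives with the same kappa segment count here as separate pairs. In the knockout library, Ighv1-53 with Igkv3-4 held 5 cells and Ighv1-55 with Igkv3-4 held 4. Pairs were not recounted with relatives merged, so the size of the largest group under merging is not known.

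The largest knockout group was Ighv1-81 with Igkv3-2, in 7 cells with 16 to 124 UMIs of the heavy and 40 to 160 of the kappa segment. It spread over 3 isotypes, with 4 cells of Ighg2c, 2 of Ighg2b and 1 of Ighg3, and no control cell had it. Ighv1-82 with Igkv6-23 was the largest group in the control (3 cells) and the next in the knockout library (6 cells), and held Ighg2b and Ighg2c cells in both. Ighv1-53 with Igkv3-4 was found in 2 control and 5 knockout cells. Ighv2-3 with Igkv10-96 was found in 5 knockout cells, 3 of Ighg2b and 2 of Igha. Ighv1-55 with Igkv10-94 and Ighv5-6 with Igkv8-19 each made up 4 knockout cells, all of Ighg2c. For comparison, Ighg2c was the isotype of 37.9% of control and 46.4% of knockout plasma cells, Ighg2b of 22.4% and 18.0%, Igha of 13.8% and 14.8% and Ighm of 13.8% and 9.84%.

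Partners differed widely in number. The 9 paired knockout cells led by Ighv1-81 used 3 kappa segments, the 12 led by Ighv1-82 used 4, and the 4 led by Ighv1-42 used 1. Igkv3-7 paired with 8 heavy segments in 10 control cells and 7 in 10 knockout cells. By contrast, the 4 paired knockout cells of Igkv10-94, of Igkv9-120 and of Igkv5-39 each had 1 heavy partner. Between these lay Igkv10-96, with 3 partners in 10 knockout cells, and Igkv3-4, with 4 in 11. The number of partners cannot exceed the number of cells, which differed between segments.

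The same pairs recurred between libraries made from different mice. A total of 13 pairs were found in both, 35.1% of the control's pairs and 14.9% of the knockout's, and they held 19 control cells (41.3%) and 37 knockout cells (26.4%). Besides the pairs of Ighv1-82, Ighv1-53 and Ighv1-42 with their kappa partners, they included Ighv11-2 with Igkv14-126. That pair was found in 2 control cells, with 27 to 63 heavy and 149 to 262 kappa UMIs, and in 1 knockout cell, with 28 and 136. All 3 cells were of isotype Ighm, the class that B-1 derived cells are known to secrete.

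**Figure D4:**
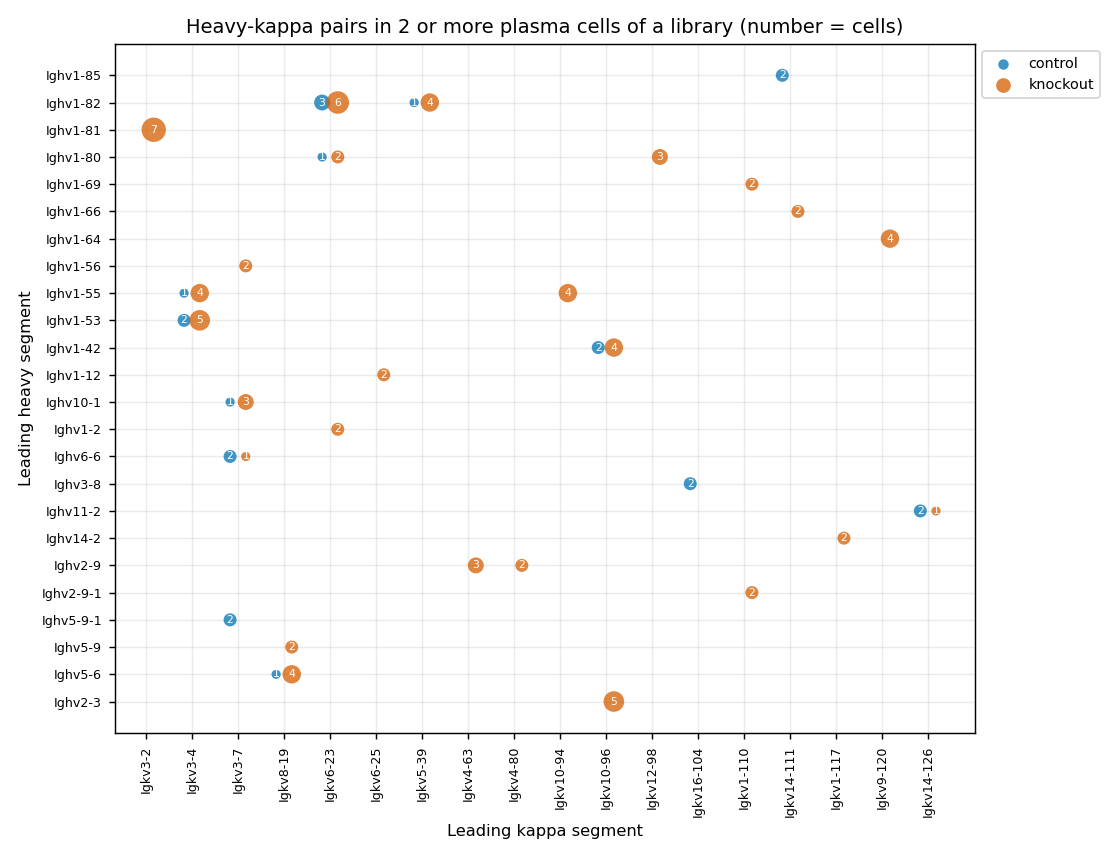
Heavy-kappa pairs called in 2 or more plasma cells of a library: the leading kappa segment on the horizontal and the leading heavy segment on the vertical axis, each ordered by distance from J. The printed number and the circle's area give the number of cells (control blue, knockout orange), from 1 to 7 cells, and several pairs carry circles of both colours.

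Lambda segments stood apart from the rest. Judged by constant genes, lambda plasma cells were few: 3 of 58 in the control (5.17%, 1.08% to 14.4%) and 2 of 183 in the knockout library (1.09%, 0.133% to 3.89%) had more UMIs of Iglc1 to Iglc3 than of Igkc, and in each of the 5 the lambda constant genes held over 99% of the light constant UMIs. The 3 control cells held 33, 341 and 40 UMIs of Iglv1, beside 742, 7861 and 941 of Iglc1. All 3 were of isotype Ighm and led by Ighv1-69, with 3, 18 and 5 UMIs. No other control cell was led by Ighv1-69, but in the knockout library it led 3 kappa cells beside 1 lambda cell. The knockout cells held 100 and 68 UMIs of Iglv1 beside 5981 and 3668 of Iglc1, were both of Ighg2b, and were led by Ighv1-69 (11 UMIs) and by Ighv4-2 (10 UMIs). Ighv4-2 is annotated as a pseudogene and is 95.8% identical to Ighv4-1. Of the control cells, 2 had low totals of 2781 and 3202 UMIs.

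Yet Iglv1 was counted in most plasma cells whose light chain was kappa. In the 55 control kappa cells, Iglv1 ranged from 0 to 225 UMIs with a median of 27, and 45 cells (81.8%, 69.1% to 90.9%) had 3 or more. In the 181 knockout kappa cells it ranged from 0 to 776 with a median of 19, and 146 cells (80.7%, 74.1% to 86.1%) had 3 or more. Iglv1 exceeded the leading kappa V segment in 12 and 34 of these cells. The cell with 776 UMIs of Iglv1 was led by Ighv1-55 and Igkv3-4 (278 UMIs), and held 9882 UMIs of Igkc but 6 of Iglc1. Iglv3 had 117 and 363 UMIs over all plasma cells, and Iglv2 2 and 24.

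The ratio of Iglv1 to Iglc1, the constant gene that follows it in a lambda chain, differed between kappa and lambda cells. Kappa cells did hold Iglc1, at a median of 11 UMIs in the control and 19 in the knockout library. Iglv1 exceeded Iglc1 in 29 of the 55 control (52.7%) and 90 of the 181 knockout kappa cells (49.7%). Per 100 summed UMIs of Iglc1 there were 84.6 UMIs of Iglv1 in control and 131 in knockout kappa cells, against 4.34 and 1.74 in lambda cells. A single cell held 1966 of the 2966 Iglc1 UMIs of control kappa cells, and another 1613 of 7432 in the knockout library. The median of the per-cell ratios was 200 in control and 95.5 in knockout kappa cells, against 4.34 and 1.76 in lambda cells. The order of the libraries thus depended on the measure. Over kappa cells, Iglv1 followed Igkc (Spearman rho 0.69 over 55 control and 0.63 over 181 knockout cells) and not Iglc1 (0.15 and -0.31) or the total UMI count (0.09 and 0.14), as a description of cells that share a library. No single cell held more than 8.96% (control) or 7.99% (knockout) of the Iglv1 UMIs of kappa cells. Level varied within groups of like cells: the 7 cells with Ighv1-81 and Igkv3-2 held 6 to 240 UMIs of Iglv1, and the 4 with Ighv1-55 and Igkv3-4 held 92 to 776, whereas the 4 with Ighv5-6 and Igkv8-19 held 0 to 10. By isotype, the medians had no common order: 63 UMIs in 5 Ighm and 19.5 in 8 Igha cells of the control, against 6.5 in 18 Ighm and 47 in 27 Igha cells of the knockout library.

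The level in other cells gives the background for this. Iglv1 had no UMI in 149 control T cells and was found in 1.34% of 1493 knockout T cells (mean 0.0134 UMIs per cell), and in 0.180% of control and 1.21% of knockout epithelial cells. In the 369 knockout B cells, Iglv1 had 11 UMIs in 10 cells (2.71%, 1.31% to 4.93%) and Iglv3 14 UMIs, beside 736 of Iglc1, or 0.802 lambda V UMIs per 100 lambda constant UMIs in all. The B cell ratio sums all lambda segments and constant genes, and over all knockout plasma cells that measure was 38.2. B cells were not split by light chain, so their ratio includes any lambda cells. It does not give the level of Iglv1 in kappa B cells. When the light chain was called over kappa and lambda segments together, a lambda segment led 12 of 51 control cells (23.5%) and 31 of 168 knockout cells (18.5%), but 9 and 29 of these had kappa constant UMIs in excess. Lambda use read from V segments was therefore above that read from constant genes (5.17% and 1.09%).

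**Figure D5:**
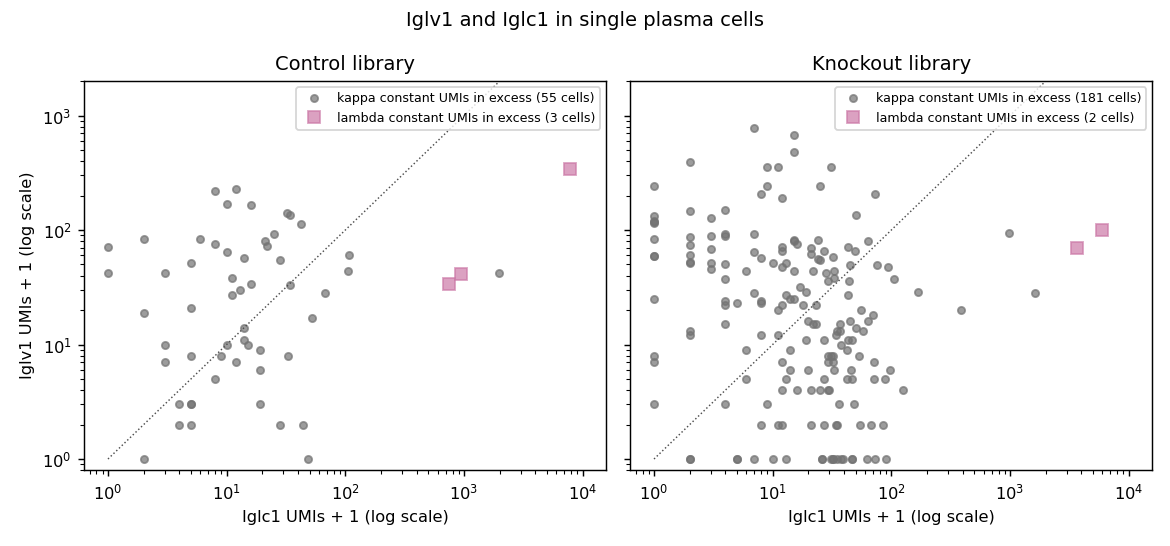
UMIs of Iglv1 (vertical) against Iglc1 (horizontal) in single plasma cells, both plus 1 on log scales, control on the left and knockout on the right. Grey circles are cells with more kappa than lambda constant UMIs (55 and 181), pink squares the 3 and 2 lambda cells, and the dotted line equality. The lambda cells lie far below the line, whereas 29 and 90 kappa cells lie above it.

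B cells were too shallow to call most segments. Of 369 knockout B cells, 114 (30.9%, 26.2% to 35.9%) had a heavy, 137 (37.1%, 32.2% to 42.3%) a kappa and 23 (6.23%) a lambda V UMI, all above the T cell shares given earlier at a similar median depth. A heavy segment was called in 6 cells, all different, and a kappa segment in 15 cells, on 9 segments. Of the 6 heavy calls 2 were of the Ighv1 family. When a single UMI sufficed, 106 heavy calls fell on 57 segments with an effective number of 66.3, and 127 kappa calls on 52 segments with 48.5. These exceed the 32.0 and 26.8 of plasma cells in the same library, but the calls rest on fewer UMIs. The heavy segment with the most such calls was Ighv1-5 (6 cells, 11 UMIs), which led 2 knockout plasma cells, and the kappa segment Igkv1-117 (7 cells), level with Igkv3-4. Ighv3-6 had 8 B cell UMIs and led 1 plasma cell in each library. The 5 control B cells held 1 heavy, 4 kappa and 2 lambda V UMIs, which allows no description of use.

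Genes of V(D)J recombination were not detected at this depth. Rag1, Rag2 and Dntt, which cut the segments and add bases at the joins, had 0 UMIs in the plasma and B cells of both libraries (upper Poisson limits of 3.50 and 1.20 CPM in control and knockout plasma cells and 2.12 CPM in knockout B cells). Ung, a uracil glycosylase of DNA repair, was found in 6 control and 9 knockout plasma cells. Factors of the plasma cell state were widely detected: Xbp1 in 56 of 58 and 180 of 183 plasma cells, Irf4 in 45 and 150, and the V promoter coactivator Pou2af1 in 50 and 158. Prdm1 was found in 29 and 102 plasma cells, and Pou2f2 in 29 and 130. Pax5, which holds B cell identity, was found in 1 control and 13 knockout plasma cells, against 292 of 369 knockout B cells. Ebf1, another factor of B cell identity, was found in 21 control and 94 knockout plasma cells, against 363 of 369 knockout B cells. Of the surrogate light chain genes, Vpreb1 was found in 1 plasma cell of each library and Igll1 in none. The related gene Vpreb3, which is not part of that chain, was found in 22 and 69 plasma cells.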

How the data were processed

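The measurement was droplet single-cell RNA sequencing with 10x 3′ chemistry, without receptor enrichment. The deposited values are raw UMI counts per gene and barcode, made with Cell Ranger 8.0.0 per the file headers, whereas the submitters' processing notes name Cell Ranger 3.1.3 and build mm10.

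From these, a barcode was kept if it had 500 or more genes and no more than 15% mitochondrial counts, and Scrublet doublets (Scanpy 1.11.5, expected rate 0.08) were removed, including 9 plasma cells of the knockout library. Cells were classed by the marker rules in the text; part of the B cell rule and 1 gene of the recombination list are not reported here. A leading segment needed 3 UMIs and 50% of its chain. Isotype was the heavy constant gene with the most UMIs. V exons (GENCODE M21) were aligned with Biopython 1.88. Intervals are exact binomial or Poisson, 95%. Named segments were those leading most plasma or B cells, differing most between libraries, in the 5 largest pairs, all lambda segments, and the 3 commonest pairs within cells; segments and cells singled out beyond this (Igkv11-125, Ighv1-66, Ighv11-2) were chosen after their values were seen. The members and gene lists were chosen with earlier results of these data known. The computations were tested on simulated data. Kept depth per plasma cell ranged from 2180 to 58458 UMIs. No statistical test was possible with 1 library per group.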

Additional observations from a re-analysis of the deposited data

How the results depend on the processing

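Each of 23 values was recomputed under up to 19 alternatives, 15 planned and 4 added after seeing the data, giving 201 values, of which 185 stayed within the main value's counting interval or, for counts and effective numbers, within 1.5 times it. No paired analysis was possible because each group is 1 library. Segments were also merged in chains, each linked to some other member by 90% identity or more, so members of a group can be less alike than that. Merging raised the share of the group holding the leading segment to 35.1% (control) and 44.8% (knockout) for heavy and 17% for knockout kappa. It lowered the effective number to 6.36 and 4.18 for heavy and 10.7 and 12.1 for kappa. With UMIs in place of cells, the effective numbers were 19.3 (control heavy), 8.54 (control kappa) and 15.7 (knockout kappa), and the lambda share of light V UMIs was 40.1% and 39.0%. With a minimum share of 80%, Ighv1-82 with Igkv6-23, the largest control pair at the 50% share, held 0 of 30 cells and a lambda segment led 5.56% of knockout plasma cells. With 1 UMI sufficing, the effective number of kappa segments in knockout B cells was 48.5, and with the strict B cell gate Ighv1 led 0 of 2 called cells. No effective number could be given for heavy segments of B cells, since each was called once. Without the plasma cells holding 20 or more epithelial UMIs, 43 control and 172 knockout plasma cells remained. Of 109 segments then tested, 87 (79.8%) lay past 2-fold (52 higher, 35 lower), against 16.7% of all genes tested. The limits that the filter sets on the share and direction of the main values hold for these too. The median difference over all genes moved from -0.05 to 0.21 (log2). Without the lambda cells, Iglv1 reached 3 UMIs in 45 and 146 plasma cells. Of the plasma cells without a heavy call (8 control and 38 knockout), 1 and 13 had a first heavy segment below 3 UMIs, and the others missed the 50% share or were tied.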
